A study of Mus musculus with 7 samples.

Results

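Vessel endothelium was followed through 10 pan-endothelial genes, listed by symbol and chosen with earlier results of these data known. *Cdh5*, *Pecam1* and *Esam* encode proteins of endothelial cell junctions, and *Emcn*, *Eng*, *Plvap* and *Robo4* encode surface proteins. *Vwf* and *Egfl7* encode secreted proteins, and *Erg* encodes a transcription factor. All 10 were found among the 43346 rows of the deposited gene table, and all 10 were among the 15810 genes with enough counts to be tested. RNA was sequenced from 7 whole colon tumors of wild-type recipients in which colitis-associated cancer had been induced, with 4 tumors in mice that carried *Dnmt3a*+/Δ bone marrow (BM; written Dnmt3a(+/-) in the sample labels) and 3 in mice that carried *Dnmt3a*+/+ BM. Every recipient had received 1 dose of 10 mg/kg azoxymethane (AOM), a carcinogen, and 3 cycles of 3% dextran sulfate sodium (DSS), which injures the colon lining. In the donors of both groups Cre was driven by the *Mx1* promoter and induced with poly(I:C), and the recipients had been lethally irradiated, so that the deleted allele was in the graft and the recipients' own vessels were *Dnmt3a* wild type. The labels call the recipients C57BL6/J aged 8 weeks, whereas the methods describe congenic CD45.1 recipients aged 6 weeks. Recipients of both sexes were used in the study as a whole, and each tumor is treated as 1 mouse. The sample names of *Dnmt3a*+/Δ replicates 2, 3 and 4 carry a suffix that the other names lack. No *Dnmt3a*+/+ tumor carries it, and what it stands for is not given in the sources used here. The tumors came from 2 transplantation experiments: replicates 1 and 2 of either graft are from BMT18, and the remaining tumors (*Dnmt3a*+/+ replicate 3, *Dnmt3a*+/Δ replicates 3 and 4) are from BMT8.

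Endothelial cells line every blood vessel and hold to each other through VE-cadherin (*Cdh5*), PECAM-1 (*Pecam1*, also called CD31) and ESAM. They keep the vessel wall selective through surface proteins such as endomucin and the diaphragm protein PLVAP, and they store von Willebrand factor for clotting. In growing tumors new vessels sprout from old ones under VEGF, BMP and Notch signals, and ETS family transcription factors such as ERG keep the endothelial genes switched on. None of these genes is wholly private to endothelium: *Pecam1* is also found in platelets and leukocytes, *Vwf* in platelets and megakaryocytes, *Eng* in macrophages and stromal cells, and *Erg* in blood stem cells.

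Start-site sequence is shown for the members with a single start site in the RefSeq window table for GRCm38.p6, since the genes moved together and ETS factors bind a GGAA core. Each window runs from 250 bases before to 50 bases after the RefSeq start and is printed 5′ to 3′ on the gene's strand, with GGAA and its other-strand form TTCC in capitals.
Emcn start window (chr3:137340828-137341127, + strand): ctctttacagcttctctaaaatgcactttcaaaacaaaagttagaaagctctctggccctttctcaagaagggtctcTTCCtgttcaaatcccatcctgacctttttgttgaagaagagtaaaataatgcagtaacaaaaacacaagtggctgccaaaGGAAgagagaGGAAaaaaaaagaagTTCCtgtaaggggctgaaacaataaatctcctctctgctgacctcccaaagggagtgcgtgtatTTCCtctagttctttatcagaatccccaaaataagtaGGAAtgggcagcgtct
Eng start window (chr2:32646345-32646644, + strand): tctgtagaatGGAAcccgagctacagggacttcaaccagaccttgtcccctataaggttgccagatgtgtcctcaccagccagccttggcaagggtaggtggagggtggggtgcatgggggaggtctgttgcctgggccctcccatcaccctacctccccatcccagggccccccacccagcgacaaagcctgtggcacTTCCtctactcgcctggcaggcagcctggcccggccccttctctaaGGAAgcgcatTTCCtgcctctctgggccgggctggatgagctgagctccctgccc
Robo4 start window (chr9:37401722-37402021, + strand): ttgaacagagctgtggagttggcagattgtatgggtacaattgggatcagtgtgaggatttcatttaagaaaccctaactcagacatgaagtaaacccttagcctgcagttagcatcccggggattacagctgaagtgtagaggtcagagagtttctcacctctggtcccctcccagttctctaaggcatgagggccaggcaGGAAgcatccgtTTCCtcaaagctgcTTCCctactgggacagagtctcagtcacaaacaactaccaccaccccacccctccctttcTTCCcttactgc

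The *Emcn* window held 6 matches of GGAA on both strands, the *Eng* window 4 and the *Robo4* window 4. These letters are common: 96.0% of all 32851 windows held at least 1 match, 46.3% held at least 4 and 15.7% at least 6. The longer form CAGGAA, which contains the core, occurred 2 times in the *Emcn* window and 1 time each in those of *Eng* and *Robo4*, and 30.6% of all windows held at least 1. The other long ETS form searched, CCGGAA (14.9% of all windows), was in none of the 3 windows, the SOX form AACAAT (10.7% of all windows) was in the *Emcn* window, and the SOX form AACAAAG (5.9% of all windows) was in none. *Egfl7* and *Erg* each have 3 windows in that table. The most upstream *Egfl7* window held 5 matches of GGAA, and that of *Erg* held 1. The RefSeq table matched 5 of the 10 members, and *Cdh5*, *Pecam1*, *Esam*, *Plvap* and *Vwf* had no entry. A match is a stretch of letters and was not tested for binding.

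*Egfl7* is also the host of a miRNA gene known from endothelium, *Mir126a*, and its mature 3′ arm is shown for that reason with the seed (bases 2 to 8) in capitals; RefSeq places it within *Egfl7* on the same strand.
mmu-miR-126a-3p (chr2:26591402-26591423, + strand): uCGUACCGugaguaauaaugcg

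The libraries were not made for small RNA, the *Mir126a* row of the table was at 0 in all tumors, and the miRNA itself was not measured here.

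The members were counted in every tumor. Total counts per tumor ranged from 38472738 to 64314999, and raw counts of single members ranged from 14 (*Emcn*, *Dnmt3a*+/+ replicate 1) to 2427 (*Cdh5*, *Dnmt3a*+/Δ replicate 2). Levels below are in CPM, the counts of a gene scaled to the TMM-adjusted library size of its tumor. 2 tumors stood apart. *Dnmt3a*+/Δ replicate 2 lay at one end of the first principal component of log2 CPM, which held 42.9% of the variance, and *Dnmt3a*+/+ replicate 3 had a summed CPM of 44.4 over the mural and smooth muscle marker genes, against 288 to 956 in the other 6 tumors. *Dnmt3a* itself, measured in whole tumors whose non-blood cells are wild type, had a CPM of 22.5 ± 2.06 under *Dnmt3a*+/+ BM (SD, n = 3) against 30.3 ± 8.94 under *Dnmt3a*+/Δ BM (SD, n = 4; log2 fold change 0.43, edgeR adjusted p = 0.542), which does not check the labels of the graft.

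The comparison asked whether endothelial transcripts differed between tumors that grew under *Dnmt3a*+/Δ and under *Dnmt3a*+/+ BM. All 10 genes had a higher mean with *Dnmt3a*+/Δ BM. Their log2 fold changes ran from 1.02 (*Egfl7*) to 2.59 (*Cdh5*), with a median of 1.67 where that of all genes tested was 0.0025. None passed the call of edgeR's quasi-likelihood test (an adjusted p under 0.05 with a log2 fold change beyond 1 in size), which called 0 of the 15810 genes (0%). At an unadjusted p under 0.05, 6 of the 10 were higher (*Cdh5*, *Pecam1*, *Esam*, *Eng*, *Robo4* and *Erg*), against 5.83% of all genes tested. DESeq2, the other test run, called 3 of the 10 (*Cdh5*, *Pecam1* and *Erg*), against 1.54% of the genes to which it gave an adjusted p. For these 3 genes the lowest *Dnmt3a*+/Δ tumor also lay above the highest *Dnmt3a*+/+ tumor, which held for 6.12% of all genes tested. In whole tumor RNA, more endothelial cells and more RNA per endothelial cell cannot be told apart. Without *Dnmt3a*+/Δ replicate 2 the median fell to 1.28 with all 10 still above 0, 3 genes were higher at an unadjusted p under 0.05 (*Cdh5*, *Pecam1* and *Erg*; 4% of all genes tested), and DESeq2 called 0 members. The DESeq2 count was also 0 when *Dnmt3a*+/+ replicate 1, *Dnmt3a*+/+ replicate 2 or *Dnmt3a*+/Δ replicate 4 was left out. It was 2 with *Dnmt3a*+/Δ replicate 3 left out (0.931% of the genes with an adjusted p were called higher). It was 7 with *Dnmt3a*+/+ replicate 3 left out (1.87%) and 7 with *Dnmt3a*+/Δ replicate 1 left out (2.93%).

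**Figure D1:**
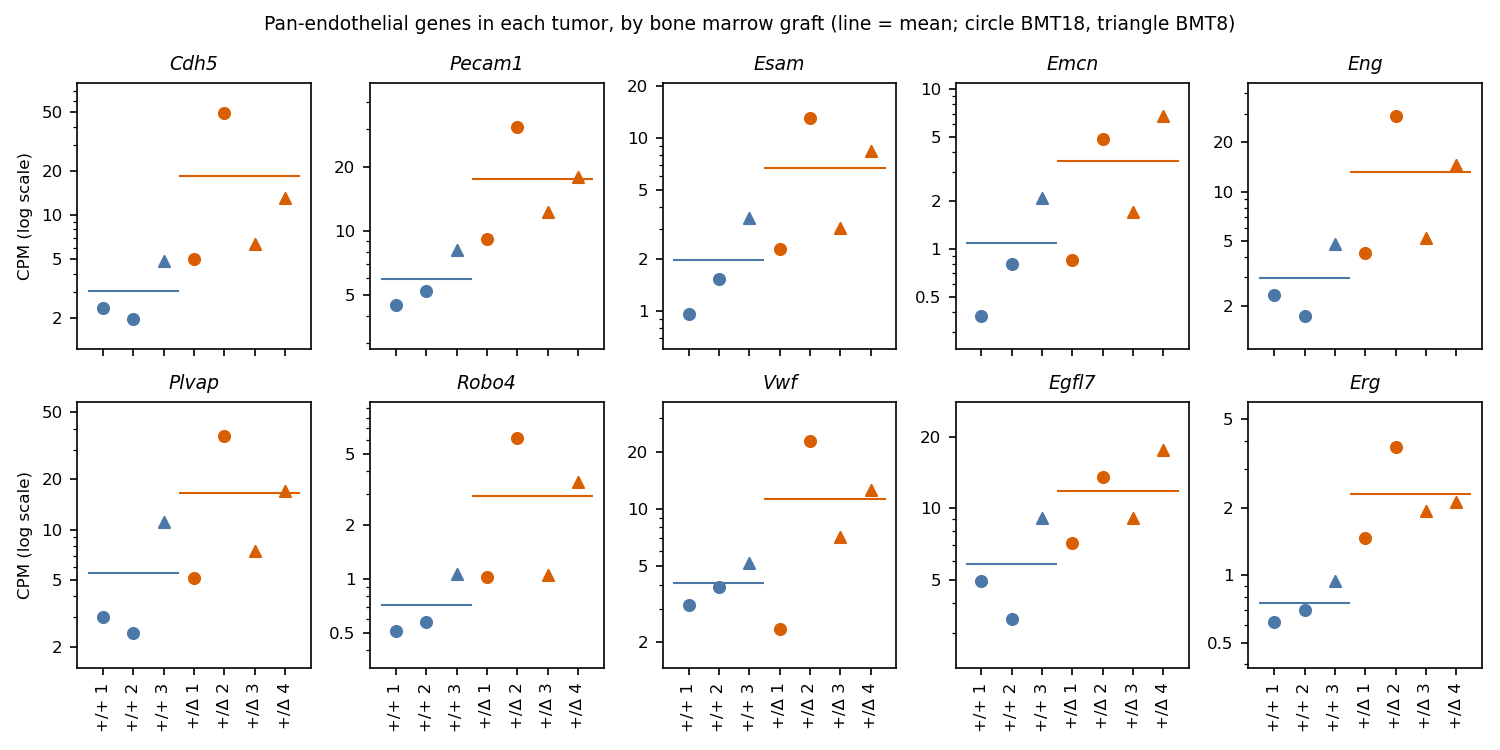
Level of each pan-endothelial gene in each tumor, in CPM on a log axis, with *Dnmt3a*+/+ BM in blue and *Dnmt3a*+/Δ BM in orange; circles are BMT18, triangles are BMT8, and lines are group means. *Dnmt3a*+/Δ replicate 2 is the highest tumor for 8 genes and replicate 4 for *Emcn* and *Egfl7*, and the groups do not overlap for *Cdh5*, *Pecam1* and *Erg*.

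Among the junction genes, *Cdh5* encodes VE-cadherin, the adhesion molecule that endothelial junctions are built on, and lies on chromosome 8 of GRCm38 from 104101625 to 104144511 (+ strand). Its CPM was 2.34, 1.97 and 4.89 in *Dnmt3a*+/+ replicates 1 to 3. With *Dnmt3a*+/Δ BM it was 5.02, 49.4, 6.38 and 13.0 in replicates 1 to 4. The groups did not overlap, but *Dnmt3a*+/Δ replicate 1 and *Dnmt3a*+/+ replicate 3 lay side by side, and replicate 2 alone held 66.9% of the summed CPM of its group. *Dnmt3a*+/Δ BM went with a log2 fold change of 2.59 (SE 0.89; edgeR adjusted p = 0.406, DESeq2 adjusted p = 0.032), and 1.44 without *Dnmt3a*+/Δ replicate 2, so that 1 tumor moved the value by over 1.5 times. The exact permutation test of mean log2 CPM over the 35 splits of the tumors gave a two-sided p of 0.0857, where the smallest p possible is 0.0286.

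*Pecam1* encodes CD31, an adhesion molecule at endothelial junctions that pathologists stain to count vessels, and lies on chromosome 11 from 106654217 to 106750628 (- strand). Its CPM was 4.49, 5.21 and 8.14 in *Dnmt3a*+/+ replicates 1 to 3. In *Dnmt3a*+/Δ replicates 1 to 4 it was 9.16, 30.8, 12.2 and 18.0. The groups were separate again, with a narrower spread than for *Cdh5*. The log2 fold change was 1.56 (SE 0.46; edgeR adjusted p = 0.377, DESeq2 adjusted p = 0.0354; exact permutation p = 0.0571), and 1.17 without *Dnmt3a*+/Δ replicate 2.

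*Esam*, an immunoglobulin-like adhesion molecule of endothelial tight junctions, lies on chromosome 9 from 37528078 to 37538319 (+ strand). Its CPM was 0.967, 1.53 and 3.46 in *Dnmt3a*+/+ replicates 1 to 3. It was 2.27, 13.0, 3.03 and 8.43 in *Dnmt3a*+/Δ replicates 1 to 4. *Dnmt3a*+/Δ replicates 1 and 3 were below *Dnmt3a*+/+ replicate 3, so the groups overlapped. Its log2 fold change was 1.75 (SE 0.74; edgeR adjusted p = 0.448, DESeq2 adjusted p = 0.168; exact permutation p = 0.171).

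Of the surface genes, *Eng* encodes endoglin, a co-receptor for BMP9 and TGF-β that is needed for vessel growth, and lies on chromosome 2 from 32646595 to 32682669 (+ strand). Its CPM was 2.34, 1.75 and 4.80 in *Dnmt3a*+/+ replicates 1 to 3. It was 4.22, 28.8, 5.22 and 14.5 in *Dnmt3a*+/Δ replicates 1 to 4. Only *Dnmt3a*+/Δ replicate 1 fell within the range of the *Dnmt3a*+/+ tumors. The log2 fold change was 2.16 (SE 0.76; edgeR adjusted p = 0.406, DESeq2 adjusted p = 0.0570; exact permutation p = 0.143). Its exons share 61 bases, 1.5% of their length, with *Fpgs* on the opposite strand, and since the strand setting of the counting is not given in the sources used here, reads from those bases cannot be assigned to either gene.

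*Robo4*, an endothelial receptor of the roundabout family that steadies the vessel barrier, lies on chromosome 9 from 37401897 to 37415115 (+ strand). Its CPM was 0.510, 0.578 and 1.07 in *Dnmt3a*+/+ replicates 1 to 3. It was 1.02, 6.13, 1.06 and 3.49 in *Dnmt3a*+/Δ replicates 1 to 4. *Dnmt3a*+/Δ replicates 1 and 3 were level with *Dnmt3a*+/+ replicate 3, and *Dnmt3a*+/Δ replicates 2 and 4 were above it. Between the grafts the log2 fold change was 2.03 (SE 0.76; edgeR adjusted p = 0.420, DESeq2 adjusted p = 0.101; exact permutation p = 0.171).

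*Emcn* encodes endomucin, a sialomucin of capillary and venous endothelium, and lies on chromosome 3 from 137341067 to 137432185 (+ strand). Its CPM was 0.376, 0.796 and 2.08 in *Dnmt3a*+/+ replicates 1 to 3. It was 0.848, 4.89, 1.69 and 6.81 in *Dnmt3a*+/Δ replicates 1 to 4. Here the highest tumor was *Dnmt3a*+/Δ replicate 4, and *Dnmt3a*+/Δ replicates 1 and 3 lay within the *Dnmt3a*+/+ range. The log2 fold change was 1.72 (SE 0.87; edgeR adjusted p = 0.505, DESeq2 adjusted p = 0.287; exact permutation p = 0.171), 1.55 without *Dnmt3a*+/Δ replicate 2 and 1.2 without *Dnmt3a*+/Δ replicate 4.

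*Plvap* encodes the protein of the diaphragms that span endothelial fenestrae and caveolae, which are frequent in tumor and intestinal vessels, and lies on chromosome 8 from 71497765 to 71511752 (- strand). Its CPM was 3.04, 2.40 and 11.1 in *Dnmt3a*+/+ replicates 1 to 3. It was 5.14, 36.2, 7.41 and 17.0 in *Dnmt3a*+/Δ replicates 1 to 4. *Plvap* had the widest spread of the 10 among the *Dnmt3a*+/+ tumors, a coefficient of variation of 88.1%, with replicate 3 high. For *Plvap* the log2 fold change was 1.58 (SE 0.82; edgeR adjusted p = 0.521, DESeq2 adjusted p = 0.306; exact permutation p = 0.2), 0.86 without *Dnmt3a*+/Δ replicate 2 and 2.60 without *Dnmt3a*+/+ replicate 3.

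Of the genes for secreted proteins, *Vwf* encodes von Willebrand factor, which tethers platelets to an injured wall, and lies on chromosome 6 from 125546774 to 125686679 (+ strand). Its CPM was 3.12, 3.89 and 5.20 in *Dnmt3a*+/+ replicates 1 to 3. It was 2.35, 22.9, 7.13 and 12.7 in *Dnmt3a*+/Δ replicates 1 to 4. This was the only member whose lowest tumor carried *Dnmt3a*+/Δ BM, replicate 1. The log2 fold change was 1.47 (SE 0.69; edgeR adjusted p = 0.483, DESeq2 adjusted p = 0.252; exact permutation p = 0.286), and 0.89 without *Dnmt3a*+/Δ replicate 2.

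*Egfl7* encodes a matrix protein with EGF-like domains that endothelial cells lay down as vessels form, and lies on chromosome 2 from 26580014 to 26593120 (+ strand). Its CPM was 4.97, 3.42 and 9.15 in *Dnmt3a*+/+ replicates 1 to 3. It was 7.14, 13.6, 9.14 and 17.6 in *Dnmt3a*+/Δ replicates 1 to 4. *Dnmt3a*+/Δ replicate 3 and *Dnmt3a*+/+ replicate 3 had nearly the same level. At 1.02 (SE 0.45; edgeR adjusted p = 0.456, DESeq2 adjusted p = 0.253; exact permutation p = 0.143) its log2 fold change was the lowest of the 10, and it was the least moved by *Dnmt3a*+/Δ replicate 2 (0.98 without it). Other annotated genes share its exons: 264 bases (7.4%) with *Gm20532*, which was at 0 in all tumors, 73 with *Mir126a*, 64 with *Agpat2* on the opposite strand and 58 with *Mir126b* on the opposite strand. *Agpat2* had 27244 counts over the 7 tumors and *Egfl7* 2757.

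*Erg*, the ETS transcription factor, lies on chromosome 16 from 95359169 to 95586593 (- strand). Its CPM was 0.618, 0.703 and 0.948 in *Dnmt3a*+/+ replicates 1 to 3. It was 1.47, 3.75, 1.95 and 2.14 in *Dnmt3a*+/Δ replicates 1 to 4. The gap between the groups was wider than the whole *Dnmt3a*+/+ range. The log2 fold change was 1.62 (SE 0.45; edgeR adjusted p = 0.361, DESeq2 adjusted p = 0.0210), and 1.32 without *Dnmt3a*+/Δ replicate 2. *Erg* had the lowest unadjusted p of the 10, 0.00736, at rank 321 among the 15810 genes, and was the only member at the smallest p of the exact permutation test, 0.0286.

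**Figure D2:**
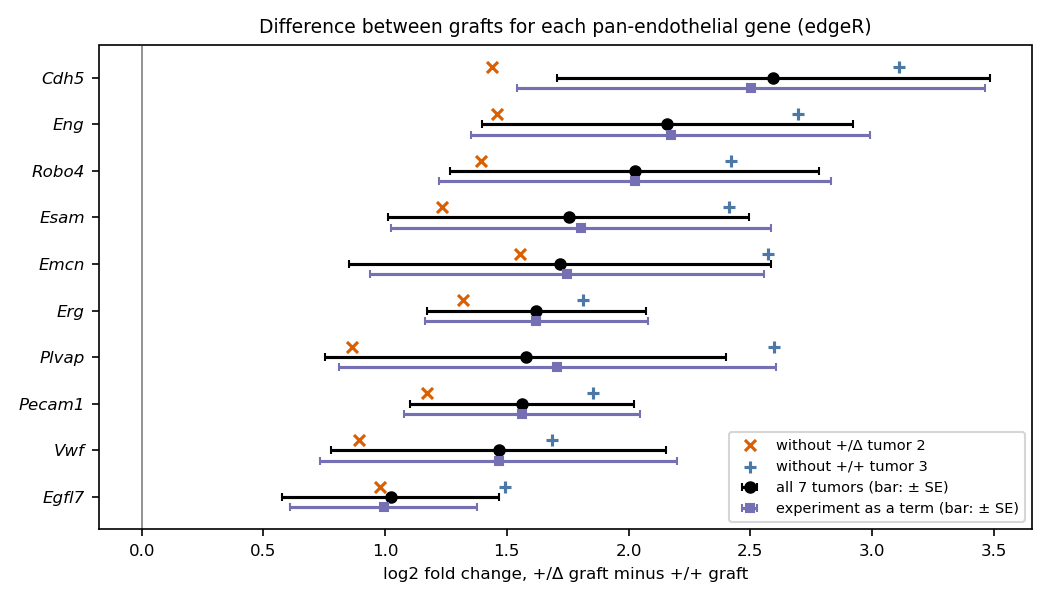
log2 fold change (*Dnmt3a*+/Δ minus *Dnmt3a*+/+ BM) of each pan-endothelial gene with all 7 tumors (black, bar ± SE), with the experiment as a term (purple, bar ± SE), without *Dnmt3a*+/Δ replicate 2 (orange crosses) and without *Dnmt3a*+/+ replicate 3 (blue plus signs). All values are above 0, from 0.86 (*Plvap* without *Dnmt3a*+/Δ replicate 2) to 3.11 (*Cdh5* without *Dnmt3a*+/+ replicate 3).

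The order of the tumors was shared by the members. *Dnmt3a*+/Δ replicate 2 was the highest tumor for 8 genes and *Dnmt3a*+/Δ replicate 4 for the other 2. *Dnmt3a*+/+ replicate 3 was the highest *Dnmt3a*+/+ tumor and *Dnmt3a*+/Δ replicate 1 the lowest *Dnmt3a*+/Δ tumor for all 10. *Dnmt3a*+/Δ replicates 2, 3 and 4, which lay above replicate 1, are the tumors whose names carry the suffix. No *Dnmt3a*+/+ tumor carries it, so in those tumors the graft and whatever the suffix stands for cannot be told apart. Summed over the members, the CPM came to 22.8, 22.2 and 50.9 for *Dnmt3a*+/+ replicates 1 to 3. It came to 38.6, 210, 55.2 and 114 for *Dnmt3a*+/Δ replicates 1 to 4. *Dnmt3a*+/Δ replicate 1 was therefore below *Dnmt3a*+/+ replicate 3 in the sum, *Dnmt3a*+/Δ replicate 3 was just above it, and *Dnmt3a*+/Δ replicates 2 and 4 stood clear of all *Dnmt3a*+/+ tumors. Over the 45 pairs of members, Pearson's r of log2 CPM across the 7 tumors had a median of 0.909, from 0.769 (*Vwf* with *Egfl7*) to 0.988 (*Eng* with *Robo4*). Each point is 1 tumor and 1 library, and 2 tumors set most of the range. The median was 0.916 without *Dnmt3a*+/Δ replicate 2 and 0.908 after centring within each graft, so the members also moved together among tumors of one graft.

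In both experiments the mean of all 10 genes was higher with *Dnmt3a*+/Δ BM, with different sizes, but in BMT8 the single tumors did not all follow. In BMT18 the log2 ratio of mean CPM, *Dnmt3a*+/Δ over *Dnmt3a*+/+, ran from 1.31 (*Egfl7*) to 3.66 (*Cdh5*), and the groups did not overlap for 9 of the 10 genes, with *Vwf* the exception. Both *Dnmt3a*+/Δ tumors of BMT18 lay above both *Dnmt3a*+/+ tumors for 23.5% of all genes tested. In BMT8, with 1 *Dnmt3a*+/+ tumor and no test, it ran from 0.13 (*Plvap*) to 1.11 (*Erg*), and both *Dnmt3a*+/Δ tumors were above the *Dnmt3a*+/+ tumor for 5 of the 10 (*Cdh5*, *Pecam1*, *Eng*, *Vwf* and *Erg*), against 36.5% of all genes tested. For *Esam*, *Emcn*, *Plvap*, *Robo4* and *Egfl7*, *Dnmt3a*+/Δ replicate 3 was below or level with the *Dnmt3a*+/+ tumor, so the higher mean rested on *Dnmt3a*+/Δ replicate 4 alone. The interaction of experiment and graft, fitted in edgeR with 3 residual degrees of freedom, was from -2.79 (*Plvap*) to -0.76 (*Egfl7*) on the log2 scale, BMT8 minus BMT18. Its lowest unadjusted p was 0.0947, so the experiments were not shown to differ. With the experiment as a term the median of the 10 genes was 1.73, 6 were higher at an unadjusted p under 0.05 (lowest adjusted p = 0.263), against 7.41% of all genes tested. In that design edgeR called 0, and DESeq2 called 4, with *Eng* added to *Cdh5*, *Pecam1* and *Erg*, against 2.25% of the genes with an adjusted p.

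Levels of different members were compared per kilobase of merged exons, from GENCODE M21. *Plvap* was the most abundant in both groups, at a mean of 2.78 CPM per kb with *Dnmt3a*+/+ BM and 8.28 with *Dnmt3a*+/Δ BM. *Egfl7* came next with *Dnmt3a*+/+ BM (1.63 CPM per kb), ahead of *Pecam1* (0.955), *Eng* (0.732), *Cdh5* (0.730) and *Esam* (0.692). *Vwf*, *Erg*, *Emcn* and *Robo4* formed the low end, at 0.253, 0.218, 0.200 and 0.136 CPM per kb, where the *Vwf* value rests on merged exons of 16.1 kb. *Eng*, *Cdh5* and *Esam* were within each other's spread, with coefficients of variation of 54.7%, 52.0% and 65.8%. With *Dnmt3a*+/Δ BM *Cdh5* took the second place (4.39 CPM per kb), followed by *Egfl7* (3.31), *Eng* (3.26), *Pecam1* (2.82) and *Esam* (2.33), and its coefficient of variation was 113%. As a share of the members' summed CPM per kb, *Cdh5* was 8.20% to 11.9% in 6 tumors and 21.4% in *Dnmt3a*+/Δ replicate 2, while *Egfl7* was 16.7% to 24.6% in those 6 tumors and 6.91% in *Dnmt3a*+/Δ replicate 2. The shares of the other 8 genes in that tumor lay within the range of the other 6 tumors or close to it (*Pecam1* 9.01% against 9.20% to 16.3%, *Eng* 13.0% against 8.35% to 12.3%).

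Endothelial genes outside the 10 were read from fixed lists. Of 20 further pan-endothelial genes, all tested, 19 had a log2 fold change above 0, with a median of 1.24 (0.98 without *Dnmt3a*+/Δ replicate 2). edgeR called 0, and 10 were higher at an unadjusted p under 0.05, against 5.83% of all genes tested. DESeq2 called *Kdr* and *Flt1*, which encode VEGF receptors, against 1.54% of the genes with an adjusted p. *Kdr* had a log2 fold change of 1.90 (SE 0.59; edgeR adjusted p = 0.383, DESeq2 adjusted p = 0.0322; 1.42 without *Dnmt3a*+/Δ replicate 2). *Flt1* had 2.34 (SE 0.73; edgeR adjusted p = 0.384, DESeq2 adjusted p = 0.0235; 1.40 without *Dnmt3a*+/Δ replicate 2). The highest value was that of *Tek*, the angiopoietin receptor, at 2.80 (SE 1.11; edgeR adjusted p = 0.433), where *Dnmt3a*+/Δ replicate 2 had 12.2 CPM and the other 6 tumors 0.376 to 1.43. Without that tumor the log2 fold change of *Tek* was 0.96. The lowest was *Clec14a*, a C-type lectin of tumor vessels, at -0.71 (SE 0.51; edgeR adjusted p = 0.629), with 10.2, 10.2 and 2.08 CPM in the *Dnmt3a*+/+ tumors and 4.09 to 5.03 in the *Dnmt3a*+/Δ tumors. The other receptor and SOX genes named beside them had log2 fold changes of 1.24 (*Tie1*), 1.97 (*Sox18*) and 5.30 (*Sox17*, 3.28 without *Dnmt3a*+/Δ replicate 2).

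**Figure D3:**
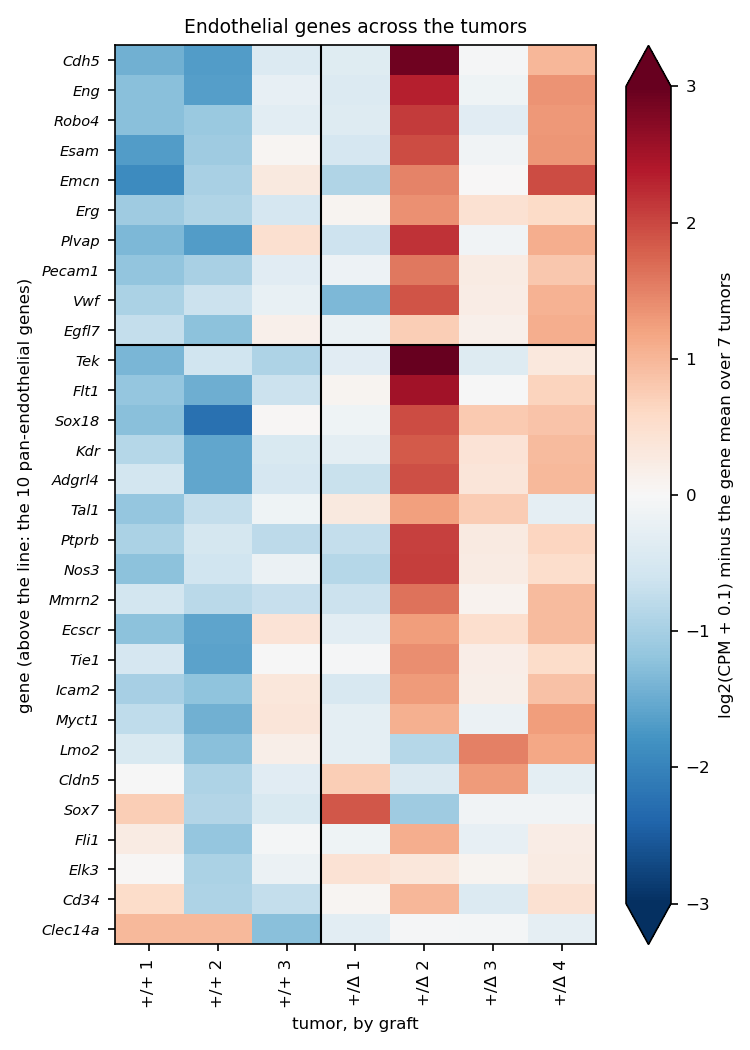
Heat map of the 10 pan-endothelial genes (above the line) and 20 other endothelial genes in the 7 tumors, as log2(CPM + 0.1) minus each gene's mean over the tumors, with genes in order of their log2 fold change. Most rows are darkest in *Dnmt3a*+/Δ replicate 2, and *Clec14a*, in the bottom row, is highest in *Dnmt3a*+/+ replicates 1 and 2.

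Genes of single vessel types were read in the same way. Of 12 arterial and tip cell genes 9 were above 0 (median 1.25, and 0.63 without *Dnmt3a*+/Δ replicate 2). DESeq2 called *Hey1*, a Notch target, at 2.7 (SE 0.80; edgeR adjusted p = 0.377, DESeq2 adjusted p = 0.0121) and *Pgf*, a VEGF family ligand, at 1.95 (SE 0.53; edgeR adjusted p = 0.361, DESeq2 adjusted p = 0.010). The lowest was *Unc5b*, a netrin receptor, at -0.77 (SE 0.24; edgeR adjusted p = 0.383). *Unc5b* and *Efnb2* (-0.36) were lower, and *Hey1* and *Pgf* higher, in every *Dnmt3a*+/Δ tumor than in every *Dnmt3a*+/+ tumor. Levels of *Unc5b* and *Efnb2* made up much of the list's summed CPM. That sum was 178 to 204 CPM with *Dnmt3a*+/+ BM and 154 to 164 CPM with *Dnmt3a*+/Δ BM. With *Dnmt3a*+/+ BM *Unc5b* had 76.9 to 97.4 CPM and *Efnb2* 70.1 to 77.6 CPM, far above the 1.97 to 4.89 CPM of *Cdh5*. Which cells of the whole tumor these 2 transcripts came from was not tested, so their lower level cannot be assigned to endothelium. Of 10 capillary genes 9 were above 0 (median 1.03), from *Car4* at -1.70 to *Aplnr*, the apelin receptor, at 2.73. *Car4* had 164, 140 and 3.52 CPM in *Dnmt3a*+/+ replicates 1 to 3 and 4.51 to 55.4 CPM with *Dnmt3a*+/Δ BM, and its source cells were not tested either. All 8 venous and adhesion genes were above 0 with a median of 0.78 (0.26 without *Dnmt3a*+/Δ replicate 2), from *Nr2f2* at 0.08 to *Selp*, P-selectin, at 1.43. All 7 lymphatic genes were above 0 with a median of 0.46 (1.00 without *Dnmt3a*+/+ replicate 1, 0.79 without *Dnmt3a*+/Δ replicate 2, 0.25 without *Dnmt3a*+/Δ replicate 1), from *Ccl21a* at 0.11 to *Prox1*, the lymphatic master regulator, at 2.01 (SE 0.36; edgeR adjusted p = 0.361, DESeq2 adjusted p = 1.12e-04). *Prox1* is also expressed in intestinal epithelial cells and tumors, and its levels of 25.7 to 32.9 CPM with *Dnmt3a*+/+ BM and 60.3 to 177 CPM with *Dnmt3a*+/Δ BM were far above those of *Erg*. *Lyve1*, *Ccl21a*, *Mmrn1* and *Reln* were lowest of all tumors in *Dnmt3a*+/Δ replicate 2, at 3.42, 4.01, 1.81 and 0.672 CPM. *Prox1* and *Pdpn* were highest there, and *Flt4* lay within the range of the other tumors. edgeR called 0 genes of these 4 lists. At an unadjusted p under 0.05, 2, 2, 0 and 2 genes in that order were higher, against 5.83% of all genes tested, while *Unc5b* was lower. No difference between the lists was tested.

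**Figure D4:**
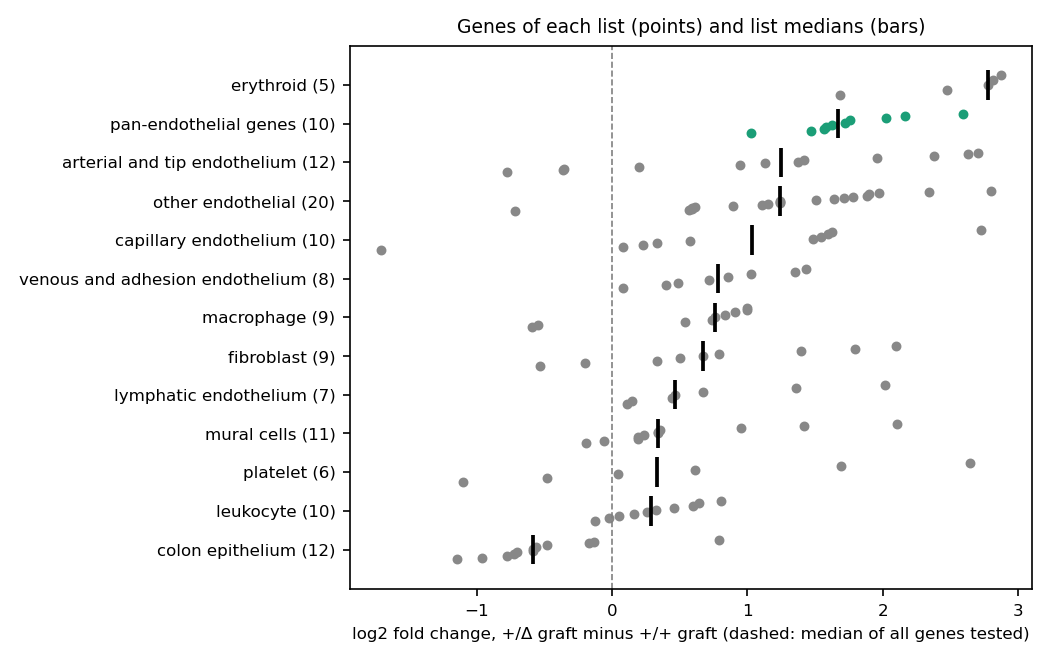
log2 fold change (*Dnmt3a*+/Δ minus *Dnmt3a*+/+ BM) of each gene (point) in the 10 pan-endothelial genes and 12 other lists, with the list median as a bar and the number of genes tested in brackets. The medians run from -0.58 (colon epithelium) to 2.78 (erythroid), with the pan-endothelial genes second from the top at 1.67.

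Markers of other cells moved with the tumors too. Erythroid genes had the highest median of all lists, 2.78 (5 of 5 above 0, 0 called by edgeR). At an unadjusted p under 0.05, 4 of the 5 were higher, against 5.83% of all genes tested. The erythroid median was 1.61 without *Dnmt3a*+/Δ replicate 4, and in BMT18 alone it was 1.96, below the 2.47 of the endothelial members. Their summed CPM was 30.9 to 43.2 in the *Dnmt3a*+/+ tumors and 20.8, 182, 44.5 and 381 in *Dnmt3a*+/Δ replicates 1 to 4, so that it was high in the same 2 tumors, replicates 2 and 4, in which the endothelial sum was high. DESeq2 called *Hba-a1*, an α-globin, at 2.87 (DESeq2 adjusted p = 0.0363) and *Alas2*, the first enzyme of erythroid heme synthesis, at 2.78 (DESeq2 adjusted p = 0.0455). Reads of *Hba-a1* are shared with its near-identical copy *Hba-a2*. The lowest was *Hbb-bs* at 1.68.

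Fibroblast genes had a median of 0.67 (7 of 9 tested above 0, 0.36 without *Dnmt3a*+/+ replicate 2, 0.15 without *Dnmt3a*+/Δ replicate 2), from *Dpt* at -0.53 to *Pdgfra* at 2.10, and a summed CPM of 182 to 342 in the *Dnmt3a*+/+ tumors, 1060 in *Dnmt3a*+/Δ replicate 2 and 254 to 392 in the other *Dnmt3a*+/Δ tumors. Mural and smooth muscle genes, which are not private to the cells around vessels, had a median of 0.34 (9 of 11 tested above 0). It was 0.05 without *Dnmt3a*+/+ replicate 3, 0.68 without *Dnmt3a*+/+ replicate 1, 0.13 without *Dnmt3a*+/Δ replicate 1 and 0.51 without *Dnmt3a*+/Δ replicate 4. The genes of the list ran from *Tagln* at -0.19 to *Rgs5*, a pericyte gene, at 2.10. Their sum was 44.4 to 808 CPM in the *Dnmt3a*+/+ tumors and 288 to 956 CPM in the *Dnmt3a*+/Δ tumors. In most tumors the bulk of that sum came from smooth muscle genes such as *Myh11* and *Acta2*. The other genes of the list went both ways in *Dnmt3a*+/Δ replicate 2. *Rgs5* (44.1 CPM), *Pdgfrb* (23.7 CPM), a receptor of pericytes, *Kcnj8* (14.4 CPM) and *Abcc9* (7.27 CPM) were highest in that tumor. *Cspg4* (1.59 CPM) and *Ndufa4l2* (0.835 CPM) were lowest there, and *Notch3* (4.93 CPM) lay within the range of the other tumors. In *Dnmt3a*+/+ replicate 3, where the sum was lowest, *Myh11* had 0.734 CPM, against 166 and 187 CPM in *Dnmt3a*+/+ replicates 1 and 2. *Pdgfrb* had 3.21 CPM there, against 3.22 and 2.92 CPM. Muscle around vessels and other muscle of the colon cannot be told apart in this sum. Platelet genes, which bear on *Vwf* and *Pecam1*, had a median of 0.33 (0.11 without *Dnmt3a*+/+ replicate 2 to 0.65 without *Dnmt3a*+/+ replicate 1), with 6 of 12 tested, from *Ppbp* at -1.10 to *Clec1b* at 2.64. The other 6 were too low to test. The list summed to 334 to 2236 CPM with *Dnmt3a*+/+ BM and 42.2 to 1408 CPM with *Dnmt3a*+/Δ BM. Nearly all of it was *Ppbp* in most tumors, a platelet chemokine gene with 2224 CPM in *Dnmt3a*+/+ replicate 1 and 4.01 CPM in *Dnmt3a*+/Δ replicate 2. *Dnmt3a*+/+ replicate 1 had only 3.60 CPM of *Gp1bb* and 2.61 CPM of *Itga2b*. The cells that the *Ppbp* RNA came from were not tested, so the sum is not a measure of platelets. Without *Ppbp* the list summed to 9.76 to 15.3 CPM in the other 6 tumors and 38.2 CPM in *Dnmt3a*+/Δ replicate 2, mostly from *Itgb3* (28.6 CPM). *Itgb3*, *Pf4* (6.64 CPM), *Vwf* and *Pecam1* were highest in that tumor. *Gp1bb* (1.10 CPM) was lowest there, and *Itga2b* (1.22 CPM) and *Clec1b* (0.224 CPM) lay within the range of the other tumors. The part of platelets in the *Vwf* and *Pecam1* values was not tested.

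Leukocyte genes had a median of 0.29 (8 of 10 above 0, -0.09 without *Dnmt3a*+/Δ replicate 2, 0.59 without *Dnmt3a*+/+ replicate 1), from *Coro1a* at -0.12 to *Laptm5* at 0.80, and macrophage genes 0.76 (7 of 9 tested above 0, 0.44 without *Dnmt3a*+/+ replicate 2, 0.07 without *Dnmt3a*+/Δ replicate 2), from *Mertk* at -0.59 to *Adgre1* at 1.00. The summed CPM of the leukocyte list was 63.7 to 139 with *Dnmt3a*+/+ BM and 57.0 to 263 with *Dnmt3a*+/Δ BM, and that of the macrophage list was 64.5 to 116 and 57.7 to 253. Colon epithelial genes went the other way, with a median of -0.58 (-0.34 without *Dnmt3a*+/+ replicate 3) and 11 of 12 below 0, from *Cdx1*, an intestinal transcription factor, at -1.15 (DESeq2 adjusted p = 0.0322, edgeR adjusted p = 0.361) to its relative *Cdx2* at 0.79. Their sum was 20515 to 39916 CPM with *Dnmt3a*+/+ BM and 11167 to 25249 CPM with *Dnmt3a*+/Δ BM, lowest in *Dnmt3a*+/Δ replicate 2, and above the sum of every other list in every tumor. The part of these other cells in the endothelial difference was not tested.

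**Figure D5:**
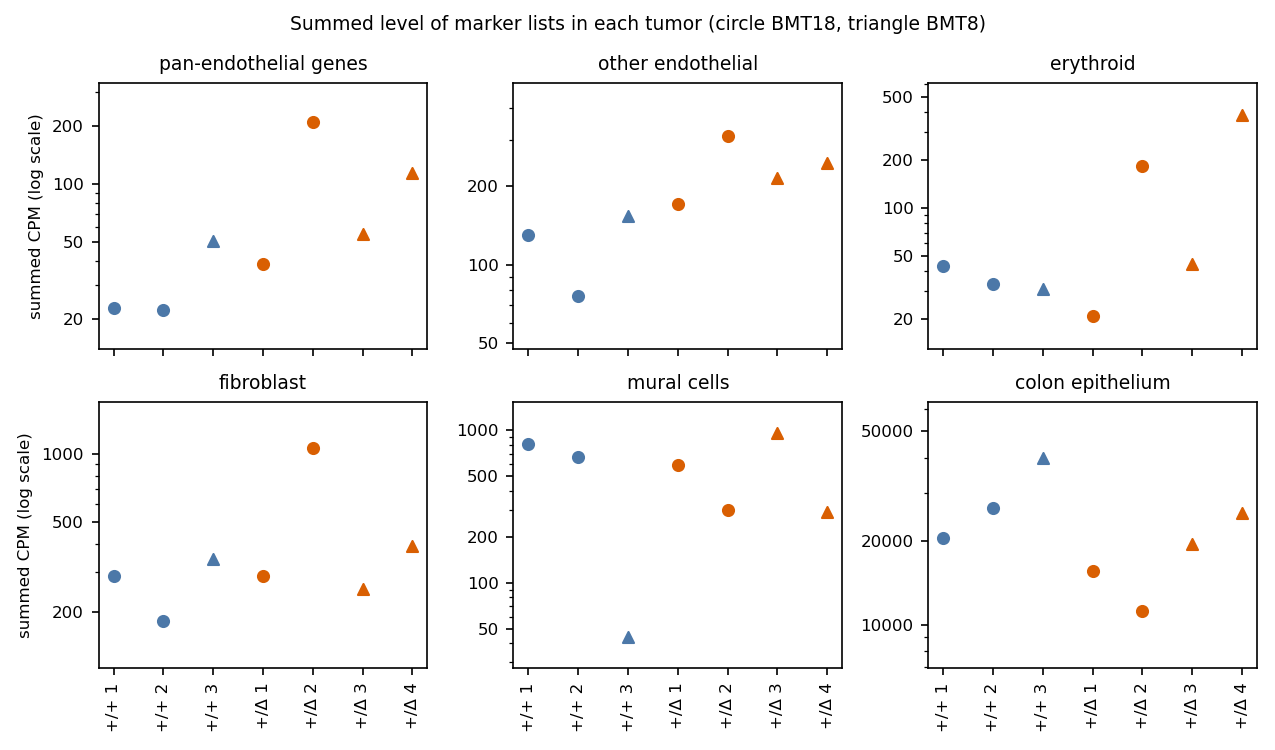
Summed CPM (log axis) of the pan-endothelial genes and 5 marker lists in each tumor, with *Dnmt3a*+/+ BM in blue and *Dnmt3a*+/Δ BM in orange; circles are BMT18 and triangles BMT8. The pan-endothelial and erythroid sums are highest in *Dnmt3a*+/Δ replicates 2 and 4, and the fibroblast sum is highest and the epithelial sum lowest in *Dnmt3a*+/Δ replicate 2. The sum of mural and smooth muscle genes (panel mural cells) is lowest in *Dnmt3a*+/+ replicate 3.

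The genes whose pattern over the tumors was most like that of the members were ranked by Pearson's r of log2 CPM with the mean z score of the 10 members, over 7 tumors. The first was *Col15a1*, which encodes a vessel basement membrane collagen, with r = 0.994 (0.993 after centring within each graft) and a log2 fold change of 1.93 (SE 0.80; edgeR adjusted p = 0.439). Its level was 1.59, 1.48 and 5.08 CPM with *Dnmt3a*+/+ BM, against 3.19, 21.8, 4.31 and 12.1 CPM with *Dnmt3a*+/Δ BM. This is the order of the summed members, except that *Dnmt3a*+/+ replicate 3 lay above *Dnmt3a*+/Δ replicate 3. *Afap1l1* (r = 0.992), *Rhobtb2* (0.988), *Hsd17b4* (0.988), *Esm1* (0.987), *Bzw2* (0.986), *Inip* (0.985), *Scamp3* (0.984), *Bmp8b* (0.984) and *Fubp1* (0.984) followed. *Esm1* encodes endocan, a product of endothelial tip cells, and had a log2 fold change of 2.38 (SE 1.07; edgeR adjusted p = 0.469) from 0.188, 0.359 and 1.35 CPM in the *Dnmt3a*+/+ tumors to 0.624, 7.86, 1.04 and 3.51 CPM in the *Dnmt3a*+/Δ tumors. The others differed less between grafts, down to 0.18 for *Inip*, so likeness in the order of tumors did not go with a like size of difference. With 7 tumors such values are common: 420 tested genes outside the members had r over 0.9, and 107 had r over 0.95.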

How the data were processed

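Reads were trimmed (Trimmomatic), aligned to mm10 (STAR) and quantified per gene (RSEM) by the authors, per the submitters' processing notes. The deposited values are those estimated counts, 100% whole numbers, without normalization; the annotation release and the strand setting are not given in the sources used here. Columns were matched to tumors by name, and 42462 of 43346 identifiers had a symbol.

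Genes kept by filterByExpr were fitted in edgeR 4.0.16 (R 4.3.3; TMM, quasi-likelihood test, Benjamini-Hochberg, no covariate), with DESeq2 1.42.0 as the alternative. A gene was called where its adjusted p was under 0.05 and its log2 fold change beyond 1 in size. The SE given with an edgeR log2 fold change is the size of that change divided by the square root of the test's F statistic. Log2 CPM used a prior count of 2. For single members, a two-sided exact permutation test used all 35 ways to split the tumors 4 against 3. The fits were tested on simulated data. Alternatives were other scalings and filters, robust dispersion, no fold threshold, the experiment as a term, the replicate number as a block, BMT18 alone and each tumor left out. DESeq2 with the experiment as a term and with each tumor left out was chosen after seeing the data.

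The members, the 12 gene lists and the rule for named genes were chosen with earlier results of these data known. The rule names all members, the 10 genes nearest in pattern, the genes of each list that were called or lay at either end, *Kdr*, *Flt1*, *Tek*, *Tie1*, *Sox17*, *Sox18* and *Dnmt3a*. Start-site windows and the miRNA come from RefSeq (GRCm38.p6), and positions and exon lengths from GENCODE M21. The edgeR and DESeq2 p-values set the difference between grafts against the spread between tumors of the same graft, and rest on these 7 tumors.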

Additional observations from a re-analysis of the deposited data

Results flagged for a closer look

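Among the 4 *Dnmt3a*+/Δ tumors, 17 values were examined for a tumor far from the others by Dixon's criterion (the 10 members, 6 other endothelial genes and the summed CPM of the members). No member and not the members' sum met it. In 3 genes *Dnmt3a*+/Δ replicate 2 did: *Flt1* at 21.9 CPM, *Tek* at 12.2 CPM and *Sox17* at 104 CPM. For normally distributed values chance marks about 1 in 20 such groups, or 0.85 of the 17. The criterion was applied to CPM without a log, and the 17 values move together, so this rate is only a rough guide. All 3 marks fall on the tumor that stands apart in the whole series.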

How the results depend on the processing

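edgeR called 0 genes and 0 members under every scaling, filter, term and block tried, with each tumor left out and with no fold threshold. DESeq2 called 302 genes and 3 members with all tumors, 473 genes and 4 members with the experiment as a term, and 0 to 7 members with 1 tumor left out. Those fits called 231, 58 and 444 genes without *Dnmt3a*+/+ replicates 1 to 3 and 697, 171, 201 and 263 genes without *Dnmt3a*+/Δ replicates 1 to 4. The median log2 fold change of the members stayed above 0 in all of these, lowest at 1.28 when *Dnmt3a*+/Δ replicate 2 was left out of edgeR's fit and highest at 2.42 when *Dnmt3a*+/+ replicate 3 was (1.25 and 2.43 in DESeq2), and was 2.47 in BMT18 alone. Scaling by library size alone moved the median over all genes by 0.21 and that of the members to 1.94. With the replicate number as a block, edgeR called 0 members and their median was 1.37. In that fit 2 members were higher at an unadjusted p under 0.05 (*Pecam1* and *Erg*), against 5.15% of all genes tested. The labels do not say that the numbers pair the tumors. Deviations of same-numbered tumors correlated at 0.568, 0.071 and -0.038, and 1 of 3 correlated best with its own number, which is too few to decide it. Lists whose median moved by more than the spread between tumors were other endothelial (1.97 in BMT18 alone, 1.79 without *Dnmt3a*+/+ replicate 3), arterial and tip (0.63 without *Dnmt3a*+/Δ replicate 2) and erythroid (0.93 with the block) in edgeR. *Emcn*, *Robo4* and *Erg* had 14 to 51 counts in *Dnmt3a*+/+ tumors 1 and 2, where counting error adds to the spread between tumors. The cause of the differences between the tests was not tested.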
